A study of Rattus norvegicus with 12 samples.

Results

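The cytosolic sulfotransferase genes of the rat were examined in liver. The 10 genes chosen were Sult2a1, Sult2a2, Sult2a6, Sult1a1, Sult1b1, Sult1c2, Sult1c3, Sult1d1, Sult1e1 and Sult2b1. A gene counted as measured where a transcript cluster, the probe group that the array reads as 1 unit, was annotated with that gene symbol and no other. By this rule 8 of the 10 genes were measured, out of 18183 genes in all, and each had 1 such cluster. Sult1e1 was included because its cluster repeats that symbol under another gene number. The only cluster that names Sult1c2 names Sult1c2a as well, so Sult1c2 was not analysed here, and Sult2a6 was not analysed here either. The family was chosen by the measured diet difference of Sult2a1, already known to be the largest log2 fold change of all genes on these arrays. The difference of Sult2a1 between the diets, and its difference from the rest of the family, are therefore given as a description with no test.

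Liver RNA came from 12 male obese Zucker rats, 6 fed a diet with 5% PSC and 6 fed the control diet without it, with 1 rat per Affymetrix Rat Gene 2.0 ST array. PSC is the labels' name for the supplement, and the series title speaks of an oyster mushroom produced by biotechnology. All rats, controls included, were homozygous for the fa allele of the leptin receptor gene, so both groups were obese and there was no lean group. They were 5 to 6 weeks old when the 4-week trial began and were killed on day 29. Of the 12 rats fed each diet, 6 were drawn at random for the arrays, and rats lived in pairs in cages, so that cage mates may not be independent. Values are log2 signals, on which a difference of 1 is a doubling. The array medians lay between 4.71 and 4.85, and all 8 measured hepatocyte markers, such as Alb and Ttr, had mean log2 signals of 11.54 or above. Of all 18183 genes, 2.60% passed the test between the diets (limma, adjusted p below 0.05), 0.715% higher and 1.89% lower in PSC-fed rats, and 19.1% had an unadjusted p below 0.05. Of the hepatocyte markers 0 of 8 passed, and 0 of 8 had an unadjusted p below 0.05 (limma). Of other cell types, 4 of 8 stellate cell markers fell, and Cd163, 1 of 7 Kupffer cell and macrophage markers, rose (limma). Nkg7, 1 of 6 lymphocyte markers, rose, while Spp1, 1 of 6 cholangiocyte markers, and Cdh17, 1 of 5 intestinal epithelium markers, fell. The summed level of the stellate list, as a mean of centred log2 signals, ranged from -0.31 to 0.12 in PSC-fed rats and from 0.04 to 0.35 in controls. That of the Kupffer cell list ranged from 0.02 to 0.45 in PSC-fed rats and from -1.05 to 0.08 in controls. The -1.05 belonged to control replicate 1, the lowest control for Cd163, Clec4f, Marco and Vsig4. The part of these cell types in the results below was not tested. In whole tissue, fewer cells of a type and less RNA per cell cannot be told apart.

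Sulfotransferases move a sulfonate group from the donor PAPS onto a hydroxyl or amine of a small molecule, which usually makes it more soluble in water and easier to excrete. The SULT2A enzymes act on hydroxysteroids, such as dehydroepiandrosterone, and on bile acids. The SULT1 enzymes act on phenols, oestrogens, thyroid hormones and drugs, and SULT2B1 acts on cholesterol and pregnenolone. In rats several of these genes are known to depend on sex through the rhythm of growth hormone, Sult2a1 being higher in females and Sult1c3 and Sult1e1 higher in males.

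The start regions of the SULT2A genes are shown first because Sult2a1 and Sult2a2 lie next to each other on chromosome 1, with 0 protein-coding genes between them, and differed in how far their signals moved. The sequences are from RefSeq, build GRCr8, and run from 250 bases before the gene's start to 50 bases after it, on the minus strand. That of Sult2a1 lies at chr1:84638898-84639197 and that of Sult2a2 at chr1:85104483-85104782. Capitals mark, on either strand, the letters TATAAA, the letters TTGCNNAA (a core that C/EBP factors are known to bind), and the motif named IR0, a pair of nuclear receptor half-sites facing each other with no base between them.
Sult2a1: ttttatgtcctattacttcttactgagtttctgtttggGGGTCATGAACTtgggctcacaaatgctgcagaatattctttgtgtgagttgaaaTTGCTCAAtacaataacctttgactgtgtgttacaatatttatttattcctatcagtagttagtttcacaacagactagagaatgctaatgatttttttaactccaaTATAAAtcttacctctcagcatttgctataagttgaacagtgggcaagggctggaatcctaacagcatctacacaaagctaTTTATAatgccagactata
Sult2a2: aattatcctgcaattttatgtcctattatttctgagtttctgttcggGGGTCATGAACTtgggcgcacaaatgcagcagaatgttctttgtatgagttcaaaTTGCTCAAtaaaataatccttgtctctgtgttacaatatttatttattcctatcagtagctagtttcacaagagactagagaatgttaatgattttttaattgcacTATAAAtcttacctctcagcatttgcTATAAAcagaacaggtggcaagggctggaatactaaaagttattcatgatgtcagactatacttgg
The IR0 motif read GGGTCATGAACT in both, with its first base at position -212 in Sult2a1 and -203 in Sult2a2, counted from the gene's start, and the region of Sult2a6 held the same letters. Of 33469 rat start regions of this length, 17, or 0.0508%, held an IR0 motif, and 3 of these 17 were the SULT2A genes, with 0 of the other 7 genes of the family. TTGCNNAA occurred in 10.6% of all start regions and, within the family, in the same 3. TATAAA occurred in 14.2% of all start regions and in those of the SULT2A genes and Sult1d1. Among the 17, 8 measured genes lay outside the family. Of these 0 passed the test between the diets and 1 had an unadjusted p below 0.05 (limma), near the shares of all genes, 2.60% and 19.1%. Their log2 fold changes lay between -0.12 and 0.36. The aligned start regions were 97.3% identical between Sult2a1 and Sult2a6, 79.9% between Sult2a1 and Sult2a2, and at most 51.8% in every pair with a gene other than these 3. A match to a motif is a description of the sequence and does not show that a factor binds there.

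Sult2a1, a hydroxysteroid and bile acid sulfotransferase, stood alone in the family for the size of its difference. Its log2 signal (transcript cluster 17629978) had a lowest value of 6.14, a median of 6.84 and a highest of 7.68 in PSC-fed rats, against 3.74, 4.42 and 5.58 in controls. The diets did not overlap, since the lowest PSC-fed rat lay 0.56 above the highest control. A gap upwards of any size occurred in 0.709% of all genes. This is a log2 fold change of 2.32 (SE 0.31), or 4.98-fold. Among the PSC-fed rats replicates 1, 3 and 6 lay at 7.31 or above and replicates 2, 4 and 5 at 6.36 or below. The spread within a diet was wide in both, with SDs of 0.67 in PSC-fed rats and 0.63 in controls (n = 6 each).

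Sult2a2, its neighbour and near relative, averaged 5.14 ± 0.30 in PSC-fed rats and 4.61 ± 0.44 in controls (log2 signal, SD, n = 6 each). Its lowest, median and highest values were 4.76, 5.17 and 5.48 in PSC-fed rats, against 4.29, 4.47 and 5.48 in controls. The groups overlapped through a single rat, control replicate 6, whose 5.48 equalled the highest PSC-fed rat, while the other 5 controls lay at 4.60 or below. The log2 fold change of 0.52 (SE 0.18, 95% interval 0.13 to 0.92) did not pass over all genes (limma, adjusted p = 0.14), though all 6 PSC-fed rats lay above the control mean. Without control replicate 6 it was 0.70 and passed (adjusted p = 0.022), and over the other 11 fits without 1 array it did not. Its value lay 1.79 below that of Sult2a1 on the log2 scale. Probes for Sult2a1, Sult2a2 and Sult2a6 may bind one another's transcripts, which would mix their signals, and this was not tested.

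Sult1a1, the main phenol sulfotransferase of liver, had lower signals in PSC-fed rats by a small step. Its lowest, median and highest log2 signals were 11.15, 11.36 and 11.50 in PSC-fed rats, against 11.51, 11.57 and 11.64 in controls. All 6 PSC-fed rats lay below every control, by as little as 0.01, which was the case for 1.48% of all genes. The log2 fold change of -0.23 (SE 0.06, 95% interval -0.37 to -0.10) narrowly missed the threshold over all genes (limma, adjusted p = 0.0618). It passed when genes with a mean log2 signal below 5 were left out (adjusted p = 0.0292), with a variance prior that follows the signal (adjusted p = 0.0275) and without PSC replicate 3 (adjusted p = 0.0474). Over the alternatives with all arrays the adjusted p lay between 0.0275 and 0.144, and the controls had an SD of 0.04 against 0.12 in PSC-fed rats.

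Over the family, 0 of the 7 measured genes other than Sult2a1 passed the test (limma, adjusted p below 0.05), against 2.60% of all 18183 genes, of which 0.715% were higher and 1.89% lower in PSC-fed rats. At an unadjusted p below 0.05 there were 3 of the 7 (Sult2a2, Sult1a1 and Sult2b1), against 19.1% of all genes. Their log2 fold changes ran from -0.23 to 0.52, with a median of -0.01, where the median of all genes was 0.0133. On each array the 7 genes together, as the mean difference from their control means, stayed between -0.10 and 0.11 in PSC-fed rats and between -0.10 and 0.07 in controls. Sult2a1 minus this mean was 2.29 ± 0.64 in PSC-fed rats and 0.00 ± 0.61 in controls (log2, SD, n = 6 each). It ran from 1.51 to 3.05 in PSC-fed rats and from -0.69 to 1.02 in controls, without overlap.

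**Figure D1:**
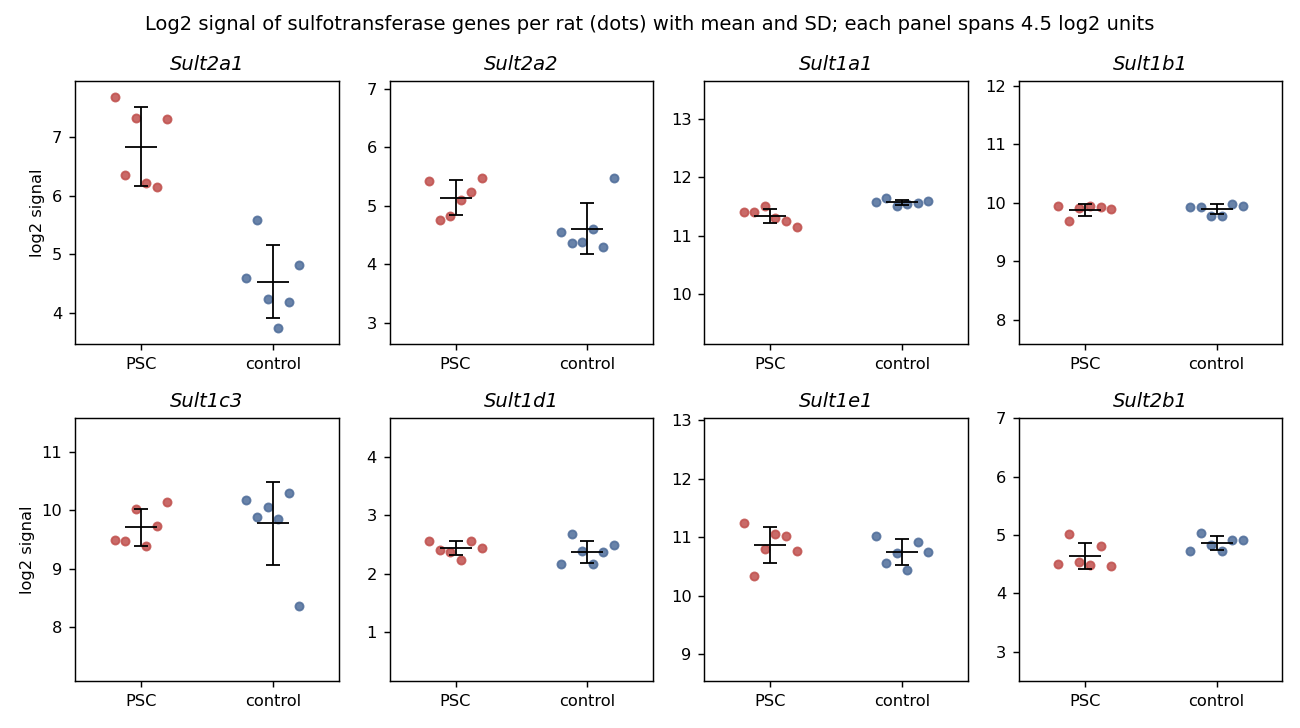
Log2 signal of the 8 measured sulfotransferase genes in each rat (dots), with mean and SD (bars) for 6 PSC-fed and 6 control rats. Every panel spans the same number of log2 units, so that the gap of Sult2a1 (lowest PSC-fed rat 6.14, highest control 5.58) can be set beside the small step of Sult1a1 and the single high and low controls of Sult2a2 and Sult1c3.

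None of the remaining SULT1 genes passed the test between the diets. Sult1b1, which sulfonates thyroid hormones and phenols, averaged 9.88 ± 0.10 in PSC-fed rats and 9.89 ± 0.09 in controls (log2 signal, SD, n = 6 each). Its log2 fold change of -0.01 had a 95% interval from -0.14 to 0.13, or 0.907-fold to 1.09-fold (limma, adjusted p = 0.967). PSC replicate 2 was lowest at 9.68, while the other 5 PSC-fed rats lay between 9.90 and 9.95. Sult1e1, the oestrogen sulfotransferase, averaged 10.87 ± 0.31 in PSC-fed rats and 10.74 ± 0.22 in controls. The difference of 0.13 (95% interval -0.16 to 0.42, limma adjusted p = 0.619) was smaller than the spread between rats of either diet.

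Sult1c3, which in the rat activates N-hydroxy arylamines, had lowest, median and highest log2 signals of 9.39, 9.62 and 10.15 in PSC-fed rats, against 8.37, 9.97 and 10.30 in controls. The diets overlapped, and control replicate 6 stood far below the other controls, of which the next lowest was 9.86. The log2 fold change was -0.07 (SE 0.26, limma adjusted p = 0.914), with a 95% interval from -0.63 to 0.50 that leaves room for a change in either direction. Without control replicate 6 it was -0.35 (adjusted p = 0.223). Sult1d1, which in rodents acts on catecholamines, had a mean log2 signal of 2.43 ± 0.12 in PSC-fed rats and 2.37 ± 0.19 in controls, and only 5.7% of genes had a lower mean signal over all arrays. Absence of its transcript cannot be stated, because no detection calls were used here.

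Sult2b1, which makes cholesterol sulfate, had lowest, median and highest log2 signals of 4.47, 4.52 and 5.02 in PSC-fed rats, against 4.72, 4.87 and 5.04 in controls. Of the PSC-fed rats 4 lay below every control, and PSC replicates 2 and 5 lay among the controls. The log2 fold change was -0.22 (SE 0.10, 95% interval -0.43 to -0.01) and did not pass (limma, adjusted p = 0.233).

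**Figure D2:**
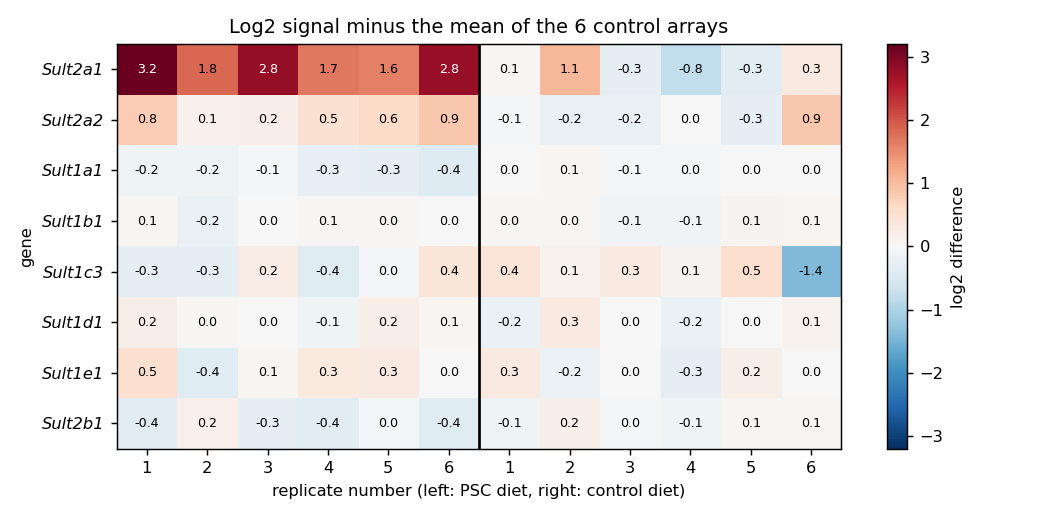
Difference of each log2 signal from the mean of the 6 control arrays, for the 8 genes (down) and the 12 rats (across, PSC-fed left and control right of the line). Sult2a1 is positive in all 6 PSC-fed rats. Control replicate 6 carries the high Sult2a2 value (5.48) and the low Sult1c3 value (8.37).

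Whether rats with more Sult2a1 also had more of another sulfotransferase was asked within each diet, which leaves the difference between diets out. Over 14 correlations, 7 genes in each diet with 6 rats each, 0 passed after Benjamini-Hochberg adjustment (exact permutation over 720 orders, two-sided) and 1 had an unadjusted p below 0.05. That was Sult1a1 in controls, with Pearson r = 0.88 (exact p = 0.0319, adjusted p = 0.415) and Spearman rho = 0.83 (exact p = 0.0583, adjusted p = 0.817), and r = 0.77 without the 2 rats farthest from the median of Sult2a1. In PSC-fed rats the same pair had r = 0.19 (exact p = 0.715) and rho = 0.43 (exact p = 0.419). Between the neighbours Sult2a1 and Sult2a2 r was 0.39 in PSC-fed rats (exact p = 0.422, rho = 0.20, exact p = 0.714) and 0.12 in controls (exact p = 0.774, rho = 0.03, exact p = 1.0). Without the 2 rats farthest from the median of Sult2a1, which leaves 4, r of this pair was 0.34 in PSC-fed rats and 0.90 in controls. The low r in controls therefore depended on 2 rats.

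Among all 28 pairs of the 8 genes, taken as deviations from the diet means over 12 rats, 0 passed (permutation of the rats within each diet, Benjamini-Hochberg over the pairs) and 1 had an unadjusted p below 0.05. Sult1b1 and Sult1e1, which lie on chromosome 14 with only Sult1d1 between them, had r = 0.79 (permutation p = 0.00812, adjusted p = 0.227) and rho = 0.82 (permutation p = 0.00304, adjusted p = 0.0851). Within the diets r was 0.91 in PSC-fed rats and 0.60 in controls. The relation rested in part on PSC replicate 2 and control replicate 4, without which r was 0.40 over 10 rats. PSC replicate 2 had the lowest Sult1b1 and Sult1e1 signals of all 12 rats, at 9.68 and 10.34. The pair of Sult2a2 and Sult1c3 had r = -0.68 (permutation p = 0.101, adjusted p = 0.706) and rho = -0.31 (permutation p = 0.329), with r = -0.96 in controls and 0.21 in PSC-fed rats, and -0.40 without PSC replicate 6 and control replicate 6.

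**Figure D3:**
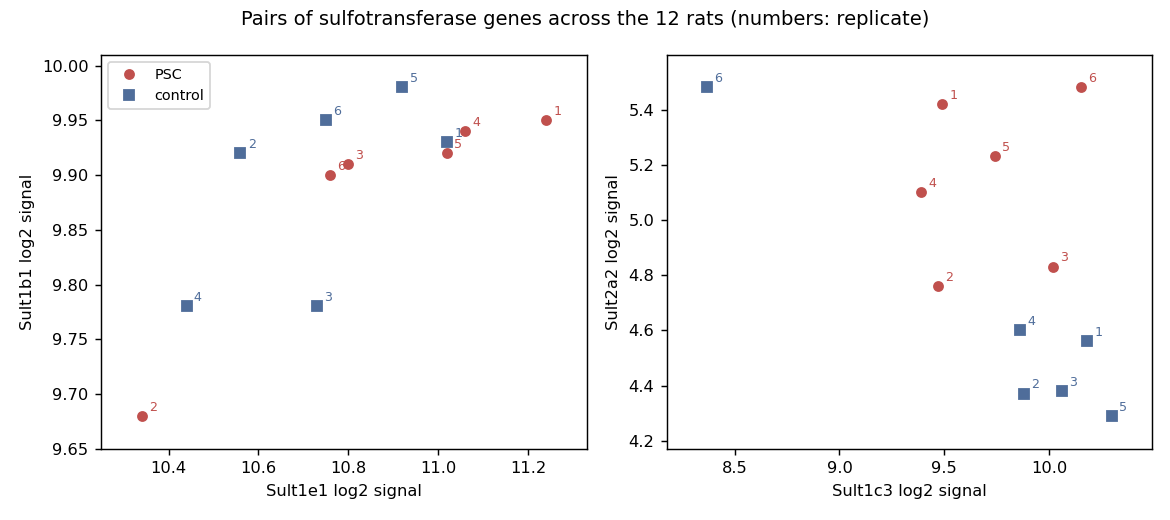
Log2 signals of Sult1b1 against Sult1e1 (left) and of Sult2a2 against Sult1c3 (right) in 6 PSC-fed rats (circles) and 6 controls (squares), with replicate numbers. PSC replicate 2 lies at the low end of the left panel (10.34 and 9.68), and control replicate 6 stands apart at the upper left of the right panel (8.37 and 5.48).

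The genes whose deviations from the diet means were most like those of Sult2a1 over the 12 rats were Mesd (r = 0.90), Rspo3 (0.90), Sacm1l (0.89), Or12e14 (0.88) and Pde8a (0.88). They were picked as the highest of all genes, so these values are a description. Their own log2 fold changes between the diets lay between -0.02 and 0.07. Or12e14 had mean log2 signals of only 1.68 in PSC-fed rats and 1.64 in controls, far below the array medians. Of the family, Sult1d1 came nearest to Sult2a1 by this measure with r = 0.58, at place 1007 among all genes, and Sult2a2 stood at place 5002 with 0.23. For Sult1d1, whose signals lay near the low end of the array, r was 0.20 over 10 rats without PSC replicate 1 and control replicate 2.

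The measured genes nearest to the SULT2A pair on chromosome 1 were, on the one side, Cabp5, Pla2g4c and Lig1, with log2 fold changes of 0.12, -0.05 and -0.01. On the other side Nsd2l1, Obox1 and Crx had 0.06, 0.13 and 0.11, and 0 of the 6 passed (limma, lowest adjusted p 0.336), where 2.60% of all genes did. Beside Sult1b1 on chromosome 14 stands Ugt2a1 (0.08), and beside Sult1c3 on chromosome 9 stand Sult1c2al1 (0.20) and Slc5a7 (0.14).

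Of 19 measured genes of PAPS supply and sulfate handling, 1 rose and 0 fell (limma, adjusted p below 0.05, or 5.26% against 2.60% of all genes), and their median log2 fold change was 0.03. At an unadjusted p below 0.05 there were 4 of the 19, against 19.1% of all genes. The 1 that passed was Cbs, the first enzyme from homocysteine to cysteine, at 9.02 ± 0.13 in PSC-fed rats and 8.60 ± 0.17 in controls (log2 signal, SD, n = 6 each), without overlap. Its log2 fold change was 0.42 (SE 0.08, adjusted p = 0.0211), and the call was lost without control replicate 1, 4 or 6 (adjusted p up to 0.0554). The PAPS synthase gene Papss2 had a log2 fold change of -0.02 and its relative Papss1 of -0.26 (adjusted p = 0.136). Slc26a1, a sulfate carrier of the hepatocyte membrane, had -0.07 and Bpnt1, which clears the by-product of sulfonation, had -0.05. Other sulfotransferases and the sulfatases gave 0 of 38 (limma, and 5 at an unadjusted p below 0.05), with a median of 0.01. The 2 with the smallest p had log2 fold changes of -0.41 for Sulf2, which trims sulfate from heparan chains (adjusted p = 0.103), and of -0.22 for Arsa, a lysosomal sulfatase (adjusted p = 0.114).

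Of 23 measured genes for transcription factors and coactivators known to act on liver sulfotransferase genes, 3 rose and 1 fell (limma, adjusted p below 0.05, or 17.4% against 2.60% of all genes), with a median log2 fold change of 0.02. At an unadjusted p below 0.05 there were 8 of the 23, against 19.1% of all genes. The share of all genes includes dim genes. A fit limited to genes with a mean log2 signal of at least 5 called 769 genes, against 473 over all genes. The share among brighter genes was therefore higher than 2.60%. The lists were chosen with earlier results of these data known, so the shares are a description. Rxra, the partner of many nuclear receptors, averaged 9.83 ± 0.03 in PSC-fed rats and 9.51 ± 0.13 in controls (log2 signal, SD, n = 6 each), without overlap. Its log2 fold change was 0.32 (SE 0.06, adjusted p = 0.0186). Ppara, the fatty acid receptor, rose by 0.41 (SE 0.09, adjusted p = 0.0345) and Cebpa, a liver-enriched factor, by 0.30 (SE 0.07, adjusted p = 0.0412). Ppargc1a, a coactivator, fell to 5.08 ± 0.21 in PSC-fed rats, against 5.56 ± 0.16 in controls (adjusted p = 0.0247). Rxra lost its call without control replicate 1 (adjusted p = 0.0501), and Ppargc1a, Ppara and Cebpa lost theirs in 5, 8 and 11 of 12 fits without 1 array, so that the count ran from 0 to 4. The receptors Nr1i2 (PXR), Nr1i3 (CAR), Nr1h4 (FXR) and Vdr had log2 fold changes of 0.17, -0.27, 0.15 and 0.32, none of which passed (adjusted p from 0.202 to 0.403).

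Of 21 measured growth hormone and sex-dependent liver genes, 1 rose and 1 fell (limma, adjusted p below 0.05, or 9.52% against 2.60% of all genes), with a median log2 fold change of 0.01. At an unadjusted p below 0.05 there were 6 of the 21, against 19.1% of all genes. Cyp2c12, a cytochrome P450 known in rats for its high level in females, had lowest and highest log2 signals of 9.51 and 10.29 in PSC-fed rats, against 10.44 and 11.26 in controls. All 6 PSC-fed rats lay below every control, and the log2 fold change was -0.88 (SE 0.13, adjusted p = 0.00514). Cyp2c12 and Sult2a1, both known as higher in female rats, had values of opposite sign. Of other genes known as higher in females, Cyp2a1, Prlr and A1bg had log2 fold changes of -0.23, -0.18 and -0.01, and Onecut1 had 0.66. Of genes known as typical of males, Cyp2a2, Cyp3a2, Cyp2c13 and Hsd3b5 had 0.83, 0.57, 0.36 and 0.05. None of these other genes passed (limma, adjusted p from 0.103 to 0.962). Control replicate 6 was the lowest control for Cyp2a2, Cyp3a2, Cyp2c13, Hsd3b5 and Onecut1 and the highest for Cyp2c12, which widens these differences. Its Cyp2a2 was 8.15, against 10.03 to 10.76 in the other controls, and its Cyp3a2 was 4.97, against 6.39 to 6.97. The differences without this rat are not given here. Probes for Cyp2c12 may bind transcripts of close relatives. Igfals, which encodes a carrier of insulin-like growth factors, rose by 0.42 (SE 0.11, adjusted p = 0.0485) and lost its call in 10 of 12 fits without 1 array. Cyp2c11, the P450 typical of males, had 0.40 (adjusted p = 0.352), with control replicate 6 again the lowest control. Ghr, the growth hormone receptor gene, had a log2 fold change of 0.00. In liver steroid inactivation 4 of 13 had an unadjusted p below 0.05 (limma). By adjusted p 1 of 13 rose and 0 fell (7.69%), with a median of 0.13. It was Ugt2b1, a glucuronosyltransferase, at 8.96 ± 0.36 in PSC-fed rats and 8.08 ± 0.37 in controls (log2 fold change 0.88, SE 0.18, adjusted p = 0.0238), and its call was lost without control replicate 1 or 4 or PSC replicate 1 or 6 (adjusted p up to 0.0625).

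**Figure D4:**
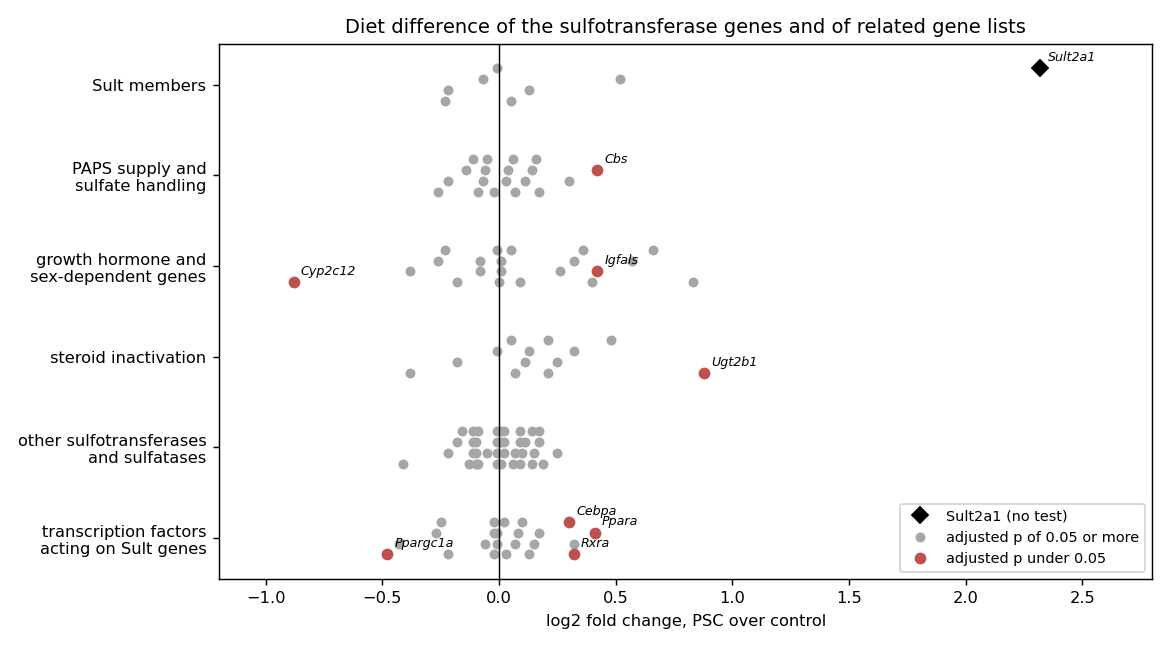
Log2 fold change of PSC-fed over control rats for the measured sulfotransferase genes (top) and for 5 related gene lists, 1 dot per gene. Red dots passed the test over all genes, and the black diamond is Sult2a1, which is shown with no test. Sult2a1 lies at 2.32 and the other 7 members between -0.23 and 0.52.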

How the data were processed

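For 12 liver arrays the authors deposited 1 log2 signal for each transcript cluster. The submitters' processing notes name RMA and the Affymetrix Expression Console. RMA corrects background, quantile normalizes arrays and summarises probes, which compresses changes of dim genes. Tool versions were not given in the sources used here. Precision is limited by how many arrays there are. The limma p-values set the difference between diets against the spread between rats, which are taken as independent.

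Of 30347 clusters, 18533 name 1 gene symbol, and the cluster with the highest mean represented each of 18183 genes. Diets were compared by a linear model with empirical Bayes (limma 3.58.1, R 4.3.3). Tests were two-sided, p-values were adjusted by Benjamini and Hochberg across every gene, and the threshold was 0.05. On data simulated for this comparison over 18183 genes, a log2 shift of 0.5 was found for 77% of 100 genes and a shift of 1 for 98% of 100, and 5.91% of its 186 calls were false. The simulated noise was normal and independent between genes and between rats. Real genes vary together and cage mates may be alike, so these rates may not hold for the measured arrays. Correlations used scipy 1.17.1 and 100000 resamples for the pairs. Start regions and names came from RefSeq (GRCr8), and were aligned with Biopython 1.88. Of 132 list members fixed, 114 were measured.

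The family and the lists were chosen with earlier results of these data known. Named genes are all members, the called members of each list (at most 4, or the 2 with the smallest p) and the 5 genes most like Sult2a1. Papss1, Papss2, Slc26a1, Bpnt1, Nr1i2, Nr1i3, Nr1h4, Vdr, Cyp2c11, Ghr, the called markers of other cell types and the neighbouring genes were named after their values were seen. The same holds for the other sex-dependent genes given beside Cyp2c12 or for control replicate 6. Replicate numbers are shared between the diets but the labels do not say that they pair rats.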

Additional observations from a re-analysis of the deposited data

Results flagged for a closer look

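Single rats stood apart from the other 5 of their diet in 3 of 46 groups examined, by the gap to the nearest rat as a share of the group's range, where chance gives about 1 in 20. Sult2a2 was high in control replicate 6, at 5.48 against 4.60 for the next control, and Sult1c3 was low in the same rat, at 8.37 against 9.86. Sult1b1 was low in PSC replicate 2, at 9.68 against 9.90 for the next PSC-fed rat.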

How the results depend on the processing

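Sult2a1 minus the median of the other members was 2.32 and ran from 2.17 to 2.53 without 1 array. Of the other 7 members 0 passed, and over these fits 0 to 1 were higher (Sult2a2, without control replicate 6) and 0 to 1 lower (Sult1a1, without PSC replicate 3). Sult1a1 was the 1 member lower with genes of mean signal of at least 5, with a variance trend and at a threshold of 0.1. The fit on genes of mean signal of at least 5 left out Sult2a2, Sult1d1 and Sult2b1, whose means lay below it. Sult1b1 turned sign to 0.01 with repeated quantile normalization and with array weights, and ran from -0.03 to 0.03 without 1 array, and Sult1c3 ran from -0.35 to 0.04. Over all genes 473 changed, with 142 to 735 without 1 array (leaving out control replicate 1, 3, 4, 5 or 6 or PSC replicate 1, 4, 5 or 6 moved it over 1.5 times), 204 when adjusted over all transcript clusters, 769 with genes of mean signal of at least 5, 94 with the replicate block and 1140 at a threshold of 0.1. Without 1 array, changed genes numbered 0 to 1 for PAPS supply, 1 to 2 for growth hormone and sex-dependent genes, 0 to 2 for steroid inactivation, 0 to 1 for the other sulfotransferases and sulfatases and 0 to 4 for transcription factors. Adjusted over all clusters, 1 growth hormone gene and 2 transcription factors passed, and 1 growth hormone gene passed with array weights. Steroid inactivation had 2 with genes of mean signal of at least 5, with the variance trend and at 0.1. Deviations of same-numbered rats correlated at -0.15 to 0.11, and 1 of 6 PSC-fed rats correlated best with its own number. Low correlations cannot show whether the replicate numbers pair rats, for example by cage, and the labels do not say. With the replicate block 0 PAPS supply genes, 1 growth hormone gene, 0 steroid inactivation genes and 2 transcription factors passed. Without the 2 rats farthest from the median of Sult2a1, which leaves 4, the correlations that turned sign were those with Sult1a1 in PSC-fed rats (-0.10) and with Sult1e1 (-0.04) and Sult2b1 (-0.13) in controls. Others moved far without turning sign. In controls r went from 0.12 to 0.90 with Sult2a2, from 0.80 to 0.10 with Sult1d1 and from -0.26 to -0.80 with Sult1c3. In PSC-fed rats r with Sult1c3 went from 0.44 to 0.99. The causes of these moves were not tested beyond the smaller or larger number of genes or arrays in each fit. Signals of Sult1d1, near the low end of the array, limit what can be seen of it. The control means of Sult2a1 (4.53) and Sult2a2 (4.61) and the PSC-fed mean of Sult2b1 (4.64) lay below the lowest array median, 4.71. How far the compression of dim signals touched their differences was not tested.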

Other observations

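Control replicate 6, the rat with high Sult2a2 and low Sult1c3, also stood at the end of the controls for several genes of the growth hormone and sex-dependent list. They were singled out after their values were seen. Of genes known as typical of males, Cyp2a2 was 8.15 in this rat, against 10.03 to 10.76 in the other 5 controls. Cyp3a2 was 4.97, against 6.39 to 6.97, while Cyp2c11 was also lowest in this rat, the other 5 controls running from 11.25 to 11.68. Cyp2c13 was 10.39, against 10.59 to 11.03, and Hsd3b5 was 9.81, against 10.62 to 10.76. Not every gene of the list was low in this rat. Fmo1 was 7.18, against 6.70 to 7.18 in the other controls, and Bcl6 at 7.89 lay within their 6.43 to 8.33. Of genes known as typical of females, Cyp2c12 was 11.26, against 10.44 to 10.86, and A1bg was 3.90, against 3.33 to 3.73, but Cyp2a1 at 11.46 lay within the range of the others, 11.17 to 11.49, as did Prlr at 7.14, within 6.81 to 7.33. Onecut1, also known as higher in females, went the other way and was lowest in this rat, at 4.96 against 5.02 to 6.10. Sult2a1, also known as higher in female rats, was 4.81 in this rat and lay within the range of the other controls, 3.74 to 5.58. Sult1e1 was 10.75 and also lay within the range of the others, 10.44 to 11.02. In PSC-fed rats the lowest Cyp2a2 was 10.42 and the lowest Cyp3a2 was 6.34.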
